A study of Mus musculus with 6 samples.

Results

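Mouse embryonic fibroblasts (MEF, 1 library) were compared with quiescent satellite cells (QSC, 2 libraries, from separate mice numbered 1 and 3). These were 3 of the 6 bulk, poly(A)-selected RNA-seq libraries of a mouse study of induced myogenic progenitor cells, which are made by reprogramming fibroblasts toward the muscle lineage. The other libraries were activated satellite cells and progenitors sorted by a Pax7 nuclear GFP reporter. They entered the gene filter, the scaling and the fit but not the contrast. The labels of the MEF and QSC libraries give the cell type and a number only. None of the sources used here gives the strain, genotype, age or sex of the animals, the medium and passage of the fibroblasts, or the way the satellite cells were isolated. Of 38924 genes in the files, 17116 had enough counts to be tested and 11635 had 5 CPM or more in the group where they were higher. CPM here are counts scaled to library size multiplied by edgeR's TMM scaling factor, and not to library size alone. That factor was 1.15 in MEF, 0.717 in QSC mouse 1 and 0.763 in QSC mouse 3. Calls and list counts are over all 17116 genes, and the genes named are, with a few list members as exceptions, among the 11635, with QSC taken as the mean of both mice. Among the genes nearest that limit were 4931414P19Rik inside it, with 5.01 CPM in MEF, and Zfp296 outside it, with a QSC mean that rounds to 5.00 CPM.

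Satellite cells are the stem cells of skeletal muscle. They lie between the muscle fibre and its basal lamina, are marked by the transcription factor Pax7, and stay out of the cell cycle until injury or growth recruits them to make myoblasts. Embryonic fibroblasts are a mixed primary culture of connective tissue cells from the embryo that divides and lays down collagen and other matrix proteins.

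The themes were read from gene lists written with earlier results of these data known. On those lists, the MEF library was set apart by fibrillar collagens and other matrix proteins, actin-based contractile proteins, mitotic genes and embryonic patterning factors. Both QSC libraries were set apart by the myogenic and quiescence genes of satellite cells, stress-inducible chaperones, immediate early genes and genes of antigen presentation, interferon and complement. By edgeR's quasi-likelihood test with Benjamini-Hochberg adjustment, 1938 of the 17116 genes were higher in MEF (11.3%) and 1374 were lower (8.03%). Each list count given below is to be read beside these shares. Of the 11635 genes at 5 CPM or more, 1715 were higher (14.7%) and 1254 lower (10.8%). The test took its spread from the 2 QSC mice, with 1 residual degree of freedom and a prior of 16.3 across genes, and assumed that the lone MEF library varies like them. By size alone, 1847 genes were at least 4-fold higher in MEF and 1495 at least 4-fold lower, which is 10.8% and 8.73% of the tested genes. Against each mouse taken alone, 1403 (8.2%) were at least 4-fold higher and 1220 (7.13%) at least 4-fold lower. The balance of both directions moved with the scaling. It was 1756 higher and 1923 lower by DESeq2, and 1836 higher and 461 lower with library size as the only scaling. By the rule of size it was 2964 higher and 922 lower with library size alone, and 2794 higher and 971 lower on RPKM values. Library size alone moved the median of all tested genes to 0.63 on the log2 scale, against 0.05 with TMM scaling, so the differences given here are relative to the TMM scale. Where another setting moved the count of a gene list by over 1.5 times and by at least 2 genes, its count is in brackets, with library size alone, by DESeq2, without a filter on low counts, with a 5 CPM filter, with other size factors or with MEF and QSC as the 3 libraries fitted.

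The libraries held 23273130 counts in MEF, against 29279686 and 29001640 in QSC, and the 10 most counted genes took 6.03% of MEF counts, against 12.7% and 14.3% of QSC counts. Of the 11635 genes, 5028 (43.2%) lay within 2-fold of the QSC mean. On log2 CPM across these genes, Pearson's r was 0.518 between MEF and QSC mouse 1 and 0.457 between MEF and QSC mouse 3, against 0.914 between the mice, as a description over genes that are not independent. The mice were at least 4-fold apart for 549 genes, 416 of them higher in mouse 1 and 133 in mouse 3. Where 2 QSC values are given in what follows, mouse 1 comes before mouse 3. Where they lie far apart, the difference from MEF depends on the mouse.

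**Figure D1:**
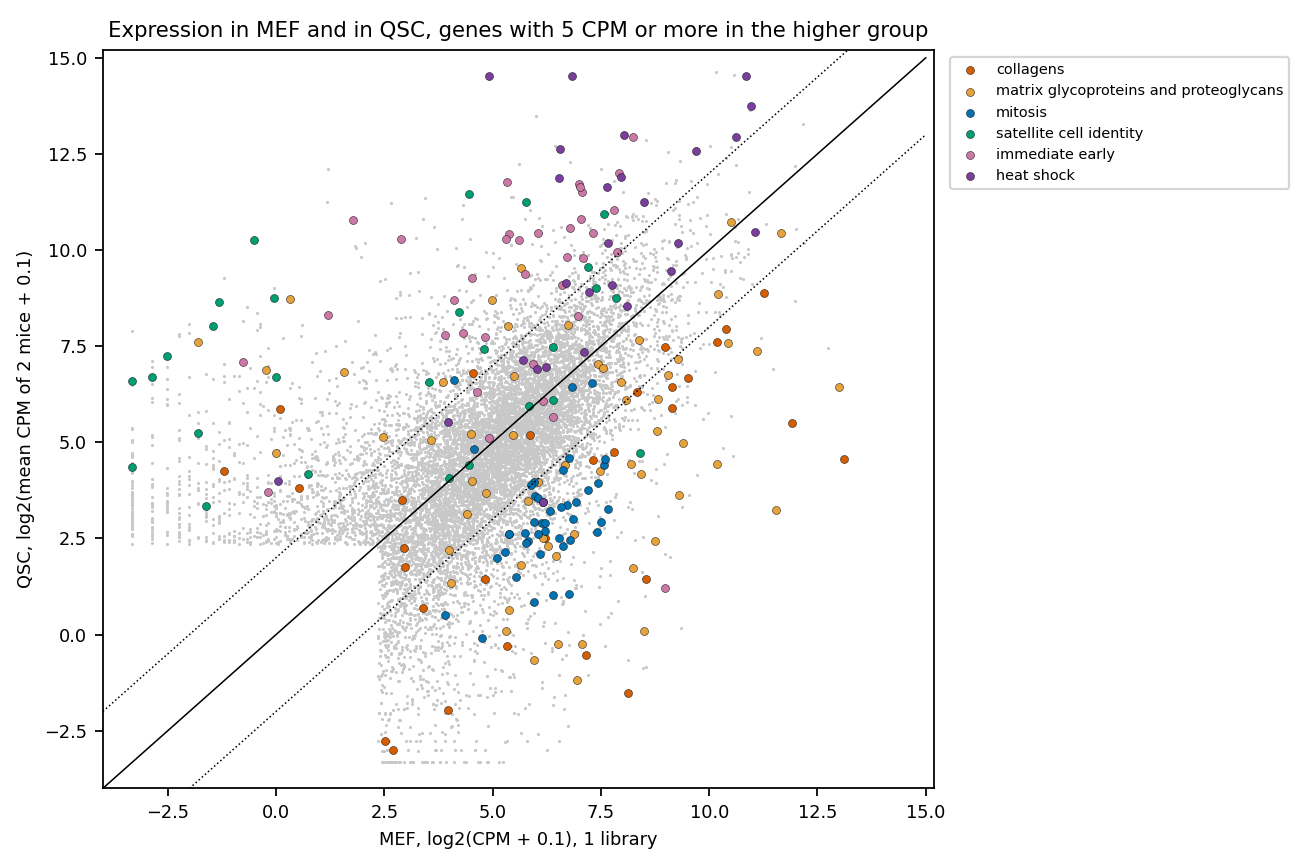
Each point is 1 of the 11635 genes with 5 CPM or more in the higher group: log2(CPM + 0.1) in the MEF library on the horizontal axis and of the mean of the 2 QSC mice on the vertical axis. The solid line marks equal levels and the dotted lines 4-fold differences. Most mitotic genes lie below the lower dotted line (higher in MEF), and most satellite cell and immediate early genes above the upper one (lower in MEF), with the inducible HSP70 genes Hspa1a and Hspa1b at the top.

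The labels were checked first on defining markers, shown per library in the plot of defining markers. Of 11 fibroblast markers, 10 were called higher in MEF. Col1a1, the main chain of type I collagen, had 8924 CPM in MEF, against 31.2 and 15.6 CPM in QSC (log2 fold change 8.57 ± 0.89 (SE), adjusted p = 9.05e-06). Thy1, a surface protein of fibroblasts, had 33.9 CPM in MEF, against 0.954 and 1.13 CPM in QSC, and Pdgfra, a PDGF receptor of mesenchymal cells, had 73.8 CPM in MEF, against 0.715 and 0.814 CPM in QSC. Ddr2, a collagen receptor, was the marker that was not called, with 187 CPM in MEF, against 162 and 118 CPM in QSC. All 11 satellite cell markers were called lower in MEF. Pax7 had no count in MEF, against 34.5 and 159.7 CPM in QSC, which makes it at least 881-fold lower in MEF with the MEF library set at a floor of 3 counts. Myod1, which commits cells to the muscle lineage, had 0.598 CPM in MEF, against 1836 and 629.6 CPM in QSC. Calcr, the calcitonin receptor of quiescent satellite cells, had 0.149 CPM in MEF, against 55.9 and 151 CPM in QSC. In bulk RNA, fewer cells of a type and less RNA per cell cannot be told apart. Each library carried the markers of its label, and the MEF value lay outside the range of the mice for every marker on both lists.

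**Figure D2:**
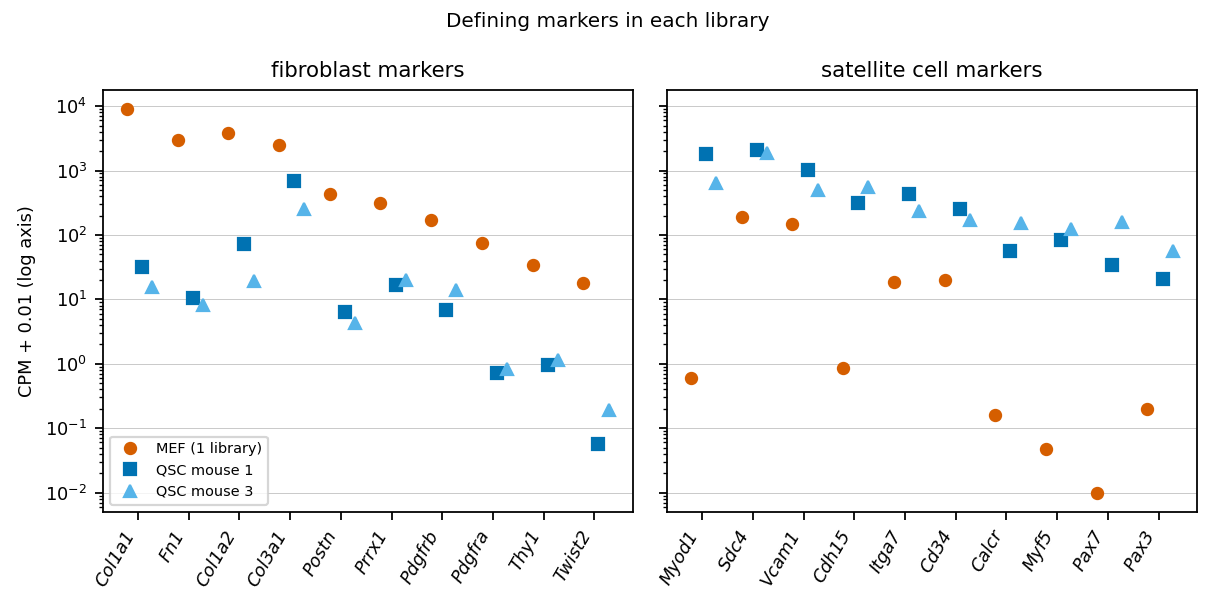
CPM + 0.01 on a log axis for 10 fibroblast markers (left) and 10 satellite cell markers (right), with 1 point per library and no error bars: MEF as circles, QSC mouse 1 as squares and QSC mouse 3 as triangles. Every fibroblast marker plotted is highest in MEF, and every satellite cell marker plotted is lowest there, with Pax7 at 0 counts in MEF.

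Markers of other cell types differed too, and between the mice. The 11 endothelial markers summed to 68.95 CPM in MEF, against 238 and 50.8 CPM in QSC. Of these, 7 (0 with library size alone) were called lower in MEF, and Cdh5, Cldn5 and Tie1, which define endothelium, had 0 counts in MEF. The 11 immune markers summed to 13.5 CPM in MEF, against 268 and 147 CPM in QSC. Of these, 2 (5 by DESeq2, 5 with 3 libraries fitted) were called lower in MEF, Lyz2 and Cd74. Of the globin genes, whose copies share reads so that their split is uncertain, Hba-a2 had 0.673 CPM in MEF, against 537 and 6.51 CPM in QSC, and the 5 red cell markers tested summed to 2.92 CPM in MEF, against 1299 and 20.1 CPM in QSC, so mouse 1 held nearly all of that signal. Schwann cell markers summed to 3.89 CPM in MEF, against 15.8 and 14.3 CPM in QSC. Adipocyte markers summed to 23.9 CPM in MEF, against 510.3 and 398 CPM in QSC, without Adipoq or Plin1 among the genes with enough counts. Pericyte and smooth muscle markers summed to 4879 CPM in MEF, against 679 and 688 CPM in QSC. Most of that sum was Acta2, also a gene of activated fibroblasts, at 4039 CPM in MEF, against 496 and 320.3 CPM in QSC. Of the 9 markers, 4 were called higher and 1 lower in MEF. Epithelial markers summed to 8.82 CPM in MEF, against 2.86 and 0.0452 CPM in QSC. Sex-linked genes also differed. Xist, the RNA of the inactive X chromosome, had 41.9 CPM in MEF, against 0.0954 and 530.1 CPM in QSC. Ddx3y, on the Y chromosome, had 0.112 CPM in MEF, against 455 and 0.226 CPM in QSC. The part of these cells and of sex in the differences that follow was not tested.

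The fibroblast library also carried transcripts of skeletal tissue. Of 8 markers of cartilage, bone and tendon tested, 5 were called higher and 1 lower in MEF. Col2a1, the collagen of cartilage, had 277 CPM in MEF, against 0 and 0.497 CPM in QSC. Acan, the main proteoglycan of cartilage, had 6.32 CPM in MEF and no count in QSC, at least 90.7-fold higher when the QSC pair is set at 3 counts in all. Ibsp, a bone sialoprotein, had 20.7 CPM in MEF and no count in QSC, at least 298-fold higher. Tnmd, of tendon, had 31.4 CPM in MEF, against 3.39 and 3.89 CPM in QSC. Sox9, a transcription factor of cartilage, went the other way with 86.6 CPM in MEF, against 374 and 379 CPM in QSC (log2 fold change -2.12 ± 0.66 (SE), adjusted p = 0.0316).

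**Figure D3:**
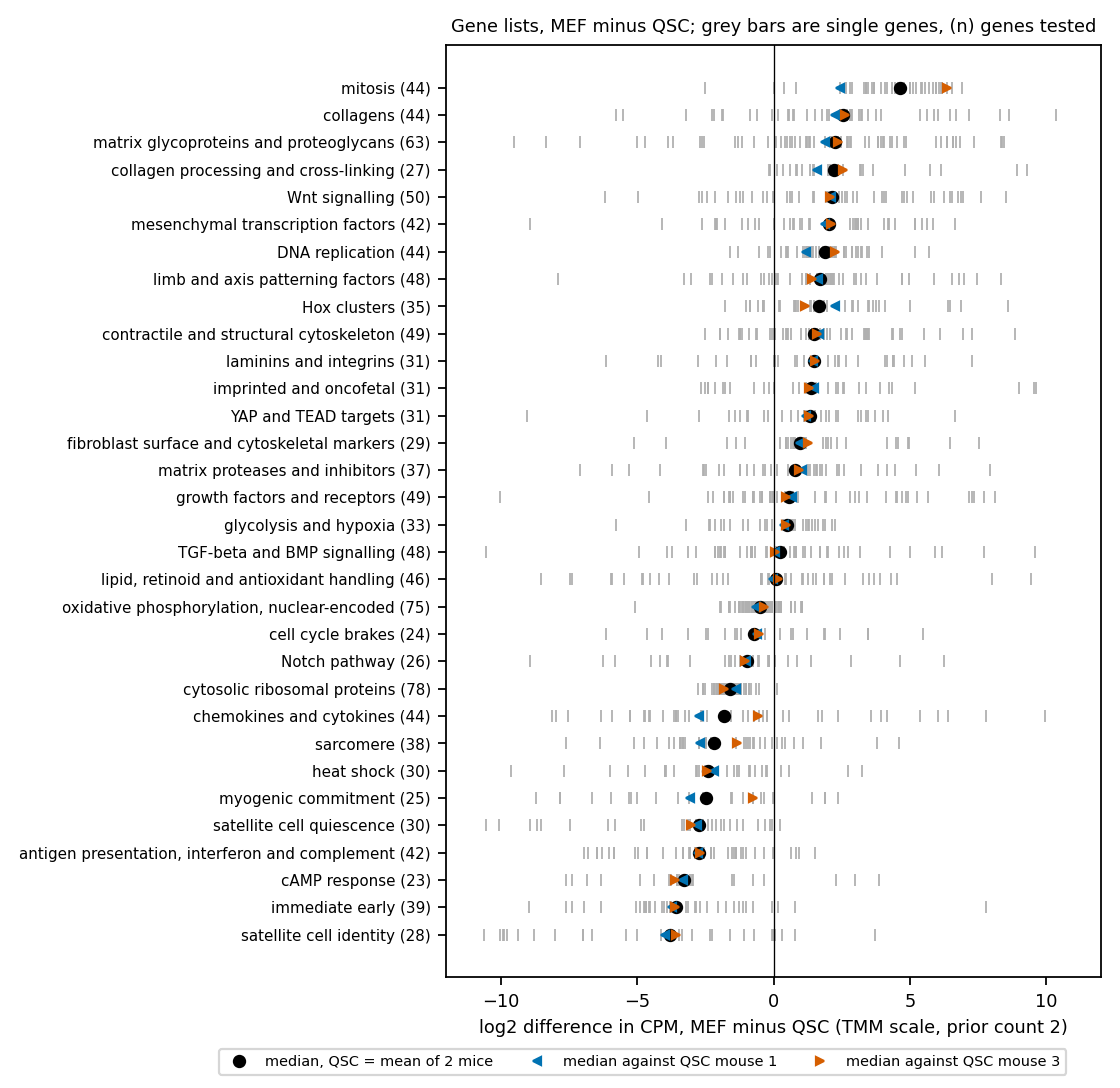
Log2 difference in CPM, MEF minus QSC, for each gene list other than the cell type markers. Grey bars are single genes, black circles the list's median with QSC as the mean of both mice, and triangles the median against mouse 1 (pointing left) and mouse 3 (pointing right). Numbers in brackets are genes tested, and there are no error bars because MEF is 1 library. Of the lists plotted, mitosis has the highest median, 4.63, and the satellite cell identity list the lowest, -3.78. The triangles are farthest apart for mitosis.

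Most genes that define satellite cells were lower in MEF, several of them to near 0. Of 28 identity genes, 19 were called lower and 1 higher, with a median log2 difference of -3.78 beside 0.05 over all genes tested. Among the transcription factors, Pax3, the relative of Pax7, had 0.187 CPM in MEF, against 20.5 and 55.7 CPM in QSC (log2 fold change -7.63 ± 1.24 (SE), adjusted p = 0.000435). Myf5, the myogenic factor already present in quiescent cells, had 1 count in MEF, or 0.0374 CPM in MEF, against 84.2 and 124 CPM in QSC. Msc (musculin), a repressor of the myogenic factors, had 0.262 CPM in MEF, against 402 and 123 CPM in QSC. All of these lay far below both mice. Among the surface proteins, Cdh15 (M-cadherin) had 0.8596 CPM in MEF, against 313 and 555 CPM in QSC, and Fgfr4, a fibroblast growth factor receptor of muscle progenitors, had 0.299 CPM in MEF, against 323 and 479 CPM in QSC. Cd82, a tetraspanin, had 21.8 CPM in MEF, against 3094 and 2502 CPM in QSC. Musk, the receptor kinase of the neuromuscular synapse, had 0.0747 CPM in MEF, against 159.9 and 141 CPM in QSC.

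Some satellite cell genes were shared. Met, the receptor for hepatocyte growth factor, had 57.5 CPM in MEF, against 43.1 and 78.997 CPM in QSC, so MEF lay between the mice. Six4 and Eya1, which act together upstream of the myogenic factors, were measured at 21.97 CPM in MEF, against 21.1 and 21.4 CPM in QSC for Six4, and at 15.8 CPM in MEF, against 17.5 and 15.8 CPM in QSC for Eya1. Tcf12, a partner of the myogenic factors, had 84.5 CPM in MEF, against 63.5 and 72.7 CPM in QSC. Sdc3, a syndecan of satellite cells, was the identity gene called higher in MEF, with 339.97 CPM in MEF, against 32.9 and 19.8 CPM in QSC (log2 fold change 3.69 ± 0.61 (SE), adjusted p = 0.000484).

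Of 30 quiescence genes, 18 were called lower and none higher (median -2.72). Chrdl2, a secreted BMP binding protein, had 0.336 CPM in MEF, against 604 and 643 CPM in QSC (log2 fold change -10.84 ± 1.06 (SE), adjusted p = 6.21e-06). Asb5, of the ankyrin and SOCS box family, had 2.17 CPM in MEF, against 2769.7 and 2095 CPM in QSC. Apoe, the lipid carrier, had 6.17 CPM in MEF, against 2956 and 1834 CPM in QSC, and Gpx3, a secreted glutathione peroxidase and one of the 10 most abundant QSC genes, had 63.7 CPM in MEF, against 9166 and 13883 CPM in QSC. All 4 of these genes lay far above the MEF value in both mice. Heyl and Hey1, Notch effectors of quiescence, were measured at 0.523 CPM in MEF, against 149 and 588 CPM in QSC for Heyl, and at 1.91 CPM in MEF, against 152 and 80.2 CPM in QSC for Hey1. Several genes on the same list were not called. Gas1, a growth arrest gene first described in fibroblasts, had 197 CPM in MEF, against 155 and 181 CPM in QSC. Cdkn1b (p27) had 7.66 CPM in MEF, against 8.201 and 11.3 CPM in QSC, and Hes1 had 62.9 CPM in MEF, against 65.9 and 132 CPM in QSC.

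Myogenic commitment genes were more often called lower in MEF than higher, and the gap was wider against mouse 1 than against mouse 3. Of 25 genes, 13 (6 with library size alone) were called lower and 2 higher, and the median log2 difference was -3.06 against mouse 1 and -0.76 against mouse 3. Myog, which drives myoblast differentiation, had 0.635 CPM in MEF, against 189 and 4.07 CPM in QSC, so its difference from MEF was -8.05 against mouse 1 and -2.54 against mouse 3 on the log2 scale. Tmem8c, the fusion protein myomaker, had 0.187 CPM in MEF, against 30.04 and 0.226 CPM in QSC, with the MEF value below but near that of mouse 3. Other genes were high in both mice. Sgca, of the dystrophin complex, had 0.0747 CPM in MEF, against 61.8 and 66.4 CPM in QSC, and Rapsn, which clusters acetylcholine receptors, had 0.336 CPM in MEF, against 87.7 and 103 CPM in QSC. Igf2, a growth factor of embryonic tissue, was higher in MEF with 540.4 CPM in MEF, against 112 and 98.1 CPM in QSC, as was the receptor Neo1.

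Most sarcomere genes were at low levels in all 3 libraries, with 17 of the list at 5 CPM or more in MEF or QSC and Tpm3, a tropomyosin also made outside muscle, the most abundant at 661 CPM in MEF, against 1816 and 997 CPM in QSC. Of 38 tested, 17 (5 with library size alone, 11 with the 5 CPM filter, 9 with 3 libraries fitted) were called lower and 2 higher in MEF. Neb (nebulin), which sets thin filament length, had 0.374 CPM in MEF, against 18.5 and 13.3 CPM in QSC, and Tnnt1, the slow troponin T, had 0.299 CPM in MEF, against 29.9 and 31.8 CPM in QSC. Actc1, the cardiac actin of immature muscle, had 2.06 CPM in MEF, against 62.5 and 1.67 CPM in QSC and was not called. Ldb3, a Z-disc protein, was higher in MEF with 15.5 CPM in MEF, against 1.43 and 0.769 CPM in QSC, and Acta1, the skeletal actin, had 41.7 CPM in MEF, against 65.8 and 9.32 CPM in QSC, between the mice.

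Collagens separated MEF from QSC at high levels of expression. Of 44 collagen genes, 23 were called higher in MEF and 4 (2 with library size alone) lower (median 2.55), and the list held 2.52% of MEF counts, against 0.151% and 0.118% of QSC counts. Col1a1 took more counts than any other gene in MEF and was at 1730.2 RPKM in MEF, against 3.77 and 2.01 RPKM in QSC. Per kilobase of transcript (RPKM), the most abundant MEF gene among the 10 with the most counts was Ftl1, ferritin light chain, at 5438 RPKM in MEF, against 11255 and 3612 RPKM in QSC. Among the other fibrillar chains, Col1a2 had 3864 CPM in MEF, against 71.6 and 19.2 CPM in QSC (log2 fold change 6.41 ± 0.83 (SE), adjusted p = 5.51e-05). Col3a1 had 2449.7 CPM in MEF, against 694 and 254 CPM in QSC, a smaller difference (log2 fold change 2.37 ± 0.76 (SE), adjusted p = 0.0358), and Col5a1 had 1158 CPM in MEF, against 175 and 216 CPM in QSC. Col11a1, a minor fibrillar chain of cartilage, had 142 CPM in MEF, against 0.0954 and 1.09 CPM in QSC. The basement membrane chains were higher as well. Col4a1 had 1339 CPM in MEF, against 271 and 224 CPM in QSC, and Col4a2 had 566 CPM in MEF, against 92.2 and 81.98 CPM in QSC. Col6a3, of the microfibrillar type VI, had 372 CPM in MEF, against 3.39 and 1.85 CPM in QSC. Against this direction went 4 chains. Col19a1 had 0.972 CPM in MEF, against 52.4 and 64.4 CPM in QSC, Col26a1 had 0.336 CPM in MEF, against 21.3 and 16.6 CPM in QSC, Col15a1 had 1.35 CPM in MEF, against 18.3 and 9.54 CPM in QSC, and Col5a3 had 23.2 CPM in MEF, against 104 and 119 CPM in QSC.

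The enzymes that finish collagen were higher with it. Of 27 processing and cross-linking genes, 14 were called higher and none lower (median 2.21). Lox, the lysyl oxidase that cross-links collagen and elastin, had 1461 CPM in MEF, against 59.9 and 43.7 CPM in QSC (log2 fold change 4.82 ± 0.62 (SE), adjusted p = 5.51e-05). Loxl3 had 448 CPM in MEF, against 7.87 and 8.999 CPM in QSC. P4ha3, a collagen prolyl hydroxylase subunit, had 107 CPM in MEF, against 0.0954 and 0.0904 CPM in QSC, whereas the subunits P4ha1 and P4ha2 were within the range of the mice, with P4ha1 at 312 CPM in MEF, against 303 and 396 CPM in QSC and P4ha2 at 130.2 CPM in MEF, against 119.7 and 168 CPM in QSC. Serpinh1 (HSP47), the collagen chaperone, was the fourth most counted gene in MEF. It had 4644 CPM in MEF, against 849 and 1463 CPM in QSC, which did not pass the test (log2 fold change 2.01 ± 0.73 (SE), adjusted p = 0.0621).

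Glycoproteins and proteoglycans were split. Of 63 genes, 33 were called higher in MEF and 10 lower (median 2.26), and their share of counts was 3.44% in MEF, against 0.658% and 0.545% in QSC. Thbs1, the matricellular protein thrombospondin 1 and the second most counted MEF gene, had 8146 CPM in MEF, against 67.4 and 107 CPM in QSC (log2 fold change 6.55 ± 0.79 (SE), adjusted p = 3.03e-05). Fn1 (fibronectin) had 3004 CPM in MEF, against 10.5 and 8.18 CPM in QSC, Fbn2 (fibrillin 2) had 123 CPM in MEF, against 0.143 and 0.543 CPM in QSC, and Postn (periostin) had 427 CPM in MEF, against 6.25 and 4.296 CPM in QSC. Those genes form fibrils or bind cells in growing tissue. Others were lower in MEF. Vtn (vitronectin), a serum and matrix adhesion protein, had 0.187 CPM in MEF, against 201 and 186 CPM in QSC (log2 fold change -9.98 ± 1.03 (SE), adjusted p = 9.05e-06). Has1, a hyaluronan synthase, had 1.16 CPM in MEF, against 537 and 305 CPM in QSC, while its paralog Has2 had 90.8 CPM in MEF, against 0.524 and 0.9496 CPM in QSC, so the enzymes differed in opposite directions. Dpt (dermatopontin) had 0.747 CPM in MEF, against 150.04 and 83.4 CPM in QSC, Ltbp4, a latent TGF-beta binding protein, had 50.5 CPM in MEF, against 751 and 729 CPM in QSC, and the small proteoglycan Dcn (decorin) had 40.6 CPM in MEF, against 206 and 312 CPM in QSC. Ltbp2 of the same family as Ltbp4 was higher in MEF, with 358 CPM in MEF, against 0.811 and 1.13 CPM in QSC.

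Proteases of the matrix moved both ways, with 9 of 37 called higher and 7 (3 with library size alone) lower. Mmp13, a collagenase, had 24.2 CPM in MEF and 1 count in QSC in all, a ratio of 1043 with a 95% counting interval of 187 to 41278. Adam19 and Adam12, metalloproteases of the cell surface, were measured at 179 CPM in MEF, against 3.77 and 1.76 CPM in QSC for Adam19, and at 102 CPM in MEF, against 10.1 and 2.13 CPM in QSC for Adam12. Lower in MEF were Serping1, the inhibitor of complement C1, with 9.27 CPM in MEF, against 1318 and 1228 CPM in QSC (log2 fold change -7.10 ± 0.93 (SE), adjusted p = 6.19e-05), Htra3, a serine protease, with 6.76 CPM in MEF, against 331 and 528 CPM in QSC, and Adamts4, an aggrecanase, with 22.4 CPM in MEF, against 427 and 381 CPM in QSC. The gelatinase Mmp2 had 248 CPM in MEF, against 298 and 170.1 CPM in QSC, between the mice.

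Matrix receptors and laminins were more often called higher in MEF than lower. Of 31 genes, 12 were called higher and 3 lower. Itga5, which with Itgb1 forms the fibronectin receptor, had 668 CPM in MEF, against 166 and 96.9 CPM in QSC, and Itga11, a collagen receptor subunit, had 58.3 CPM in MEF, against 1.86 and 0.724 CPM in QSC. Lamb1 and Lama4, laminin chains, were measured at 288 CPM in MEF, against 17.6 and 4.07 CPM in QSC for Lamb1, and at 77.4 CPM in MEF, against 4.91 and 1.54 CPM in QSC for Lama4. Itga7, the laminin receptor subunit of muscle, had 18.5 CPM in MEF, against 435 and 238 CPM in QSC (log2 fold change -4.18 ± 0.82 (SE), adjusted p = 0.00179). Lama2, the laminin chain of the muscle basal lamina, had 7.85 CPM in MEF, against 120.4 and 188 CPM in QSC, and Lama3 had 0.224 CPM in MEF, against 18.8 and 24.4 CPM in QSC.

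Contractile and structural cytoskeleton took 5.51% of MEF counts, against 2.54% and 2.69% of QSC counts, and 23 of 49 genes were called higher in MEF with 1 (4 by DESeq2) lower. Acta2, the smooth muscle actin of activated fibroblasts, had 4039 CPM in MEF, against 496 and 320.3 CPM in QSC (log2 fold change 3.31 ± 0.69 (SE), adjusted p = 0.00307). Actg2, the enteric smooth muscle actin, had 277 CPM in MEF, against 0.429 and 0.633 CPM in QSC. The calponin Cnn1 had 509 CPM in MEF, against 5.44 and 2.94 CPM in QSC, and Tpm1, a tropomyosin, had 2862 CPM in MEF, against 152 and 86.2 CPM in QSC. The crosslinker Actn1 (alpha-actinin 1) had 667 CPM in MEF, against 7.87 and 11.8 CPM in QSC. Cytoplasmic actins were less apart. Actb had 4124 CPM in MEF, against 1189 and 1794 CPM in QSC and did not pass the test, and Actg1 had 4026 CPM in MEF, against 3119 and 6229 CPM in QSC. Flnc, the filamin of muscle, was the gene called lower, with 305 CPM in MEF, against 1727 and 1770.00 CPM in QSC. Lmna (lamin A/C) had 1334 CPM in MEF, against 6256 and 4427 CPM in QSC and Lmnb1 (lamin B1) had 73.2 CPM in MEF, against 15.9 and 8.55 CPM in QSC, of which only Lmnb1 passed.

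**Figure D4:**
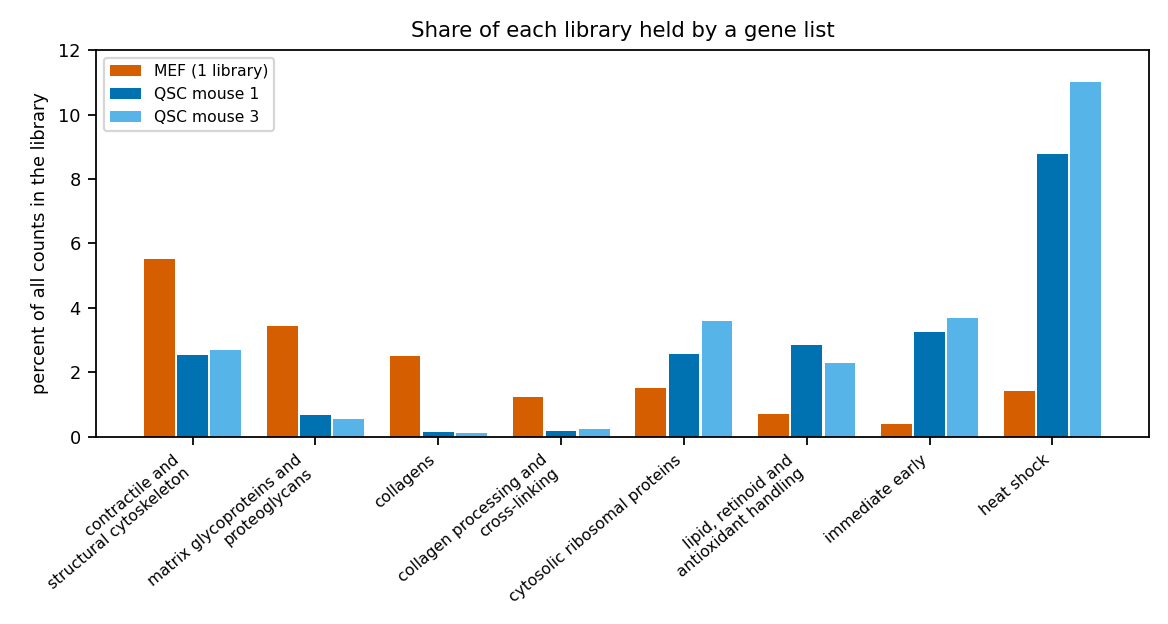
Percent of all counts in a library held by each gene list, with 1 bar per library (MEF, QSC mouse 1, QSC mouse 3) and no error bars. Cytoskeleton, matrix glycoproteins, collagens and collagen processing take larger shares of MEF, and ribosomal proteins, lipid and antioxidant genes, immediate early and heat shock genes larger shares of both QSC libraries.

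Fibroblast surface markers were less uniform than the matrix. Of 29, 11 were called higher and 2 (4 by DESeq2) lower. Cd248 (endosialin) had 365 CPM in MEF, against 2.15 and 1.67 CPM in QSC (log2 fold change 7.58 ± 0.68 (SE), adjusted p = 3.76e-06). Uchl1, a deubiquitinase, had 40.2 CPM in MEF, against 2.19 and 1.18 CPM in QSC, and Pdgfrb had 173 CPM in MEF, against 6.77 and 13.8 CPM in QSC. Other genes of the list were nearer to the QSC levels, with Vim (vimentin) at 1485 CPM in MEF, against 829 and 939 CPM in QSC and Cd44 at 396 CPM in MEF, against 501 and 231 CPM in QSC. Crip1, a LIM-domain protein, was lower in MEF at 11.8 CPM in MEF, against 591 and 292 CPM in QSC, as was Tnfrsf12a, the receptor for TWEAK, at 224 CPM in MEF, against 4153 and 2912 CPM in QSC.

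Transcription factors of connective tissue were more often called higher in MEF than lower. Of 42 mesenchymal factors, 16 were called higher and 6 (2 with library size alone) lower in MEF (median 2.05). Prrx1 and Prrx2, homeobox factors of limb mesenchyme, were measured at 308 CPM in MEF, against 16.8 and 20.1 CPM in QSC for Prrx1, and at 159 CPM in MEF, against 3.62 and 5.11 CPM in QSC for Prrx2. Twist1 and Twist2, basic helix-loop-helix factors that oppose myogenic factors, were measured at 61.6 CPM in MEF, against 1.001 and 1.76 CPM in QSC for Twist1, and at 18.1 CPM in MEF, against 0.0477 and 0.181 CPM in QSC for Twist2. Snai1, a zinc finger repressor, had 51.6 CPM in MEF, against 1.95 and 3.71 CPM in QSC, while Snai2 had 76.1 CPM in MEF, against 89.6 and 169.8 CPM in QSC, below both mice and not called. The factors lower in MEF included Runx1, with 46.7 CPM in MEF, against 731 and 863 CPM in QSC (log2 fold change -4.09 ± 0.78 (SE), adjusted p = 0.00145), and Zeb2, with 44.7 CPM in MEF, against 165 and 221 CPM in QSC.

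Patterning genes of limb and trunk were more often called higher in MEF than lower. Of 48 limb and axis factors, 13 were called higher and 4 (1 with library size alone) lower, beside 11.3% higher and 8.03% lower over all tested genes. Tbx5, the forelimb and heart T-box factor, had 7.14 CPM in MEF and no count in QSC, at least 103-fold higher. Pitx1, of the hindlimb, had 14.8 CPM in MEF, against 0.0954 and 0 CPM in QSC, so transcripts of both genes were present in the MEF library. Gata4, a factor of heart and lateral mesoderm, had 17.5 CPM in MEF and 1 count in QSC in all, a ratio of 755 with a 95% counting interval of 135 to 29893. Hand2, of lateral mesoderm, had 8.71 CPM in MEF and no count in QSC, at least 125-fold higher. Lower in MEF was Pitx3, with no count in MEF and 17.1 and 20.8 CPM in QSC, at least 169-fold lower. Lbx1, of migrating limb muscle progenitors, also had no count in MEF, against 19.3 and 21.5 CPM in QSC, at least 182-fold lower.

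The Hox genes, whose order in each cluster follows the body axis, were higher in MEF where they were called. Of 35 Hox genes tested of 38 in the list, 11 (7 by DESeq2) were called higher in MEF and none lower, among them the neighbours Hoxd10 to Hoxd13. Hoxd13 had 29.8 CPM in MEF and no count in QSC, at least 428-fold higher. Hoxd12 had 6.58 CPM and no count in QSC, and Hoxd11 had 16.4 CPM in MEF, against 0 and 0.181 CPM in QSC. Hoxa13 had 10.8 CPM in MEF, against 0.811 and 1.04 CPM in QSC, and Hoxa11 had 21.2 CPM in MEF, against 2.15 and 2.76 CPM in QSC. Other members were near the QSC levels. Hoxa7 had 10.9 CPM in MEF, against 10.5 and 18.7 CPM in QSC, and Hoxc8 had 12.1 CPM in MEF, against 6.82 and 36.5 CPM in QSC, between the mice. Hoxc9 had 4.45 CPM in MEF, against 11.7 and 20.9 CPM in QSC and Hoxc10 had 9.53 CPM in MEF, against 12.1 and 24.5 CPM in QSC, of which neither passed the test.

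Mitotic genes were higher in MEF, by an amount that depended on the mouse. Of 44 mitosis genes, 29 (9 with library size alone) were called higher and 1 lower in MEF, and the median log2 difference was 2.45 against mouse 1 and 6.38 against mouse 3. Plk1, the polo-like kinase of mitotic entry, had 109 CPM in MEF, against 3.24 and 0.724 CPM in QSC (log2 fold change 5.78 ± 0.76 (SE), adjusted p = 6.48e-05). Ccnb1 (cyclin B1) had 169 CPM in MEF, against 11.9 and 0.543 CPM in QSC, and Cdc20, which activates the anaphase-promoting complex, had 172 CPM in MEF, against 27.03 and 3.301 CPM in QSC. Mki67, the proliferation antigen, had 98.1 CPM in MEF, against 38.4 and 0.317 CPM in QSC. Top2a, the mitotic topoisomerase, had 189 CPM in MEF, against 42.1 and 0.362 CPM in QSC. Mki67 and Top2a did not pass the test (adjusted p = 0.167 and 0.0679), and both were far higher in mouse 1 than in mouse 3. The MEF value was above both mice for each of these genes. Pttg1 (securin) was the one gene called lower, with 17.2 CPM in MEF, against 89.02 and 108 CPM in QSC.

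**Figure D5:**
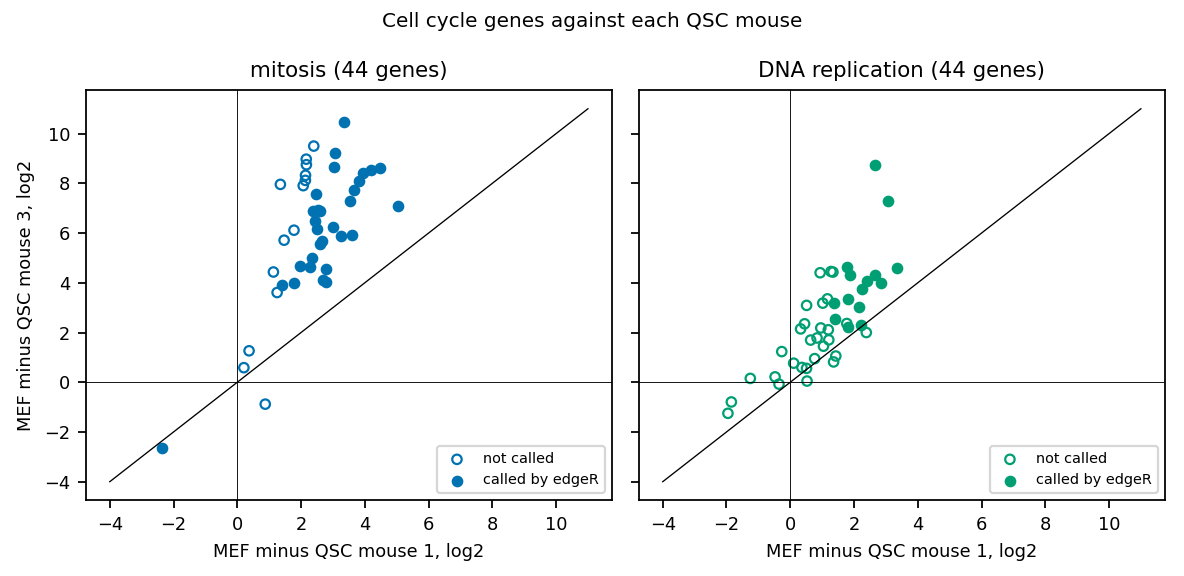
Log2 difference in CPM between MEF and QSC mouse 1 (horizontal) and QSC mouse 3 (vertical) for 44 mitosis genes (left) and 44 DNA replication genes (right), 1 point per gene. Filled points were called by edgeR and the line marks equal differences. Nearly all mitosis points lie above the line, so the difference from MEF is larger against mouse 3 than against mouse 1.

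DNA replication genes followed with smaller differences. Of 44, 15 (9 with library size alone) were called higher and none lower (medians 1.20 against mouse 1 and 2.26 against mouse 3). Ccna2 (cyclin A2) had 148 CPM in MEF, against 17.4 and 0.859 CPM in QSC, Mcm2, a subunit of the replicative helicase, had 134 CPM in MEF, against 25.4 and 7.96 CPM in QSC, and Rrm2, the ribonucleotide reductase subunit, had 408 CPM in MEF, against 112 and 20.3 CPM in QSC. Pcna, the polymerase clamp, had 93.2 CPM in MEF, against 335 and 161 CPM in QSC and Slbp, the histone stem-loop binding protein, had 109 CPM in MEF, against 424 and 259.8 CPM in QSC, so both were higher in each mouse than in MEF, although neither passed the test. Cell cycle brakes were mixed, with 4 of 24 called higher and 5 lower. Cdkn1a (p21) had 441 CPM in MEF, against 2755 and 2181 CPM in QSC (log2 fold change -2.48 ± 0.81 (SE), adjusted p = 0.0384). Gadd45a, a stress-inducible growth arrest gene, had 9.64 CPM in MEF, against 789 and 602 CPM in QSC, and Cdkn1c (p57) had 41.97 CPM in MEF, against 691 and 71.04 CPM in QSC, with mouse 3 near MEF. Higher in MEF were Ccng1, a p53 target cyclin, with 1272 CPM in MEF, against 24.98 and 32.2 CPM in QSC, and Cdkn2b (p15), with 64.95 CPM in MEF, against 5.77 and 6.01 CPM in QSC.

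Because the mitotic genes moved together, their promoters were searched for the letters of 2 elements known from cell cycle promoters: TTTGAA, the cell cycle homology region bound by the MuvB complexes, and CCAAT, bound by NF-Y. The search covered both strands of RefSeq windows of the GRCm38.p6 assembly, which span 300 bases around each gene's start. TTTGAA was found in 27 of 37 mitosis genes with a window (73.0%), in 5 of 35 DNA replication genes (14.3%), in 14.3% of the 11517 tested genes with a window and in 20.2% of all 27025 genes of the table. CCAAT was found in 28 of 37 mitosis genes (75.7%), in 21 of 35 DNA replication genes and in 42.1% of tested genes. Within the mitosis list, 18 of 27 genes with TTTGAA were called higher in MEF (median log2 difference 4.66), as were 6 of 10 without it (median 4.55), so the letters did not sort the genes by difference. The windows of Plk1 (chr7:122159185-122159484, plus strand), Cdc20 (chr4:118437294-118437593, minus strand) and Kif23, a kinesin of the midbody (chr9:61946750-61947049, minus strand), are shown 5′ to 3′ because all 3 hold both elements, with the letters TTTGAA and CCAAT (or ATTGG, its reverse complement) in capitals.
Plk1: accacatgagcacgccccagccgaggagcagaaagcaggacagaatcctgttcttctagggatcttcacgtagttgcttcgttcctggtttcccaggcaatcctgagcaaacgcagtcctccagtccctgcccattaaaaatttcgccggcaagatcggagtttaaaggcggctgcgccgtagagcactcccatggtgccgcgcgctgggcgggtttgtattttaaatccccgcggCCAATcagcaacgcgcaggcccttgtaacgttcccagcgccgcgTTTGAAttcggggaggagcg
Cdc20: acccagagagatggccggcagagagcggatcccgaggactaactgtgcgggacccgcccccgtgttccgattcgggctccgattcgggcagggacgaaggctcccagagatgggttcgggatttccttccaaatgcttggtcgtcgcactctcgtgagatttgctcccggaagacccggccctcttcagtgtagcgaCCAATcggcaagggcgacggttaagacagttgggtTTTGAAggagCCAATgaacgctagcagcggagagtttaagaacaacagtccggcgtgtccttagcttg
Kif23: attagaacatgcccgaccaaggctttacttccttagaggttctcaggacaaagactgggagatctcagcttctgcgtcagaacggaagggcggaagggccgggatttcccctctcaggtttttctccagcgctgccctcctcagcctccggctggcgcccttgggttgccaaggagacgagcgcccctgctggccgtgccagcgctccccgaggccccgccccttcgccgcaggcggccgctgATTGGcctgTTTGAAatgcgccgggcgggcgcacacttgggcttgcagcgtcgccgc

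Stress-inducible chaperones were among the most counted genes of both QSC libraries. The heat shock list held 1.42% of MEF counts, against 8.79% and 11.01% of QSC counts, and 13 (7 with library size alone) of its 30 genes were called lower in MEF with 2 higher. Hspa1a and Hspa1b, the inducible HSP70 pair, were measured at 29.9 CPM in MEF, against 22959.8 and 24292 CPM in QSC for Hspa1a, and at 114 CPM in MEF, against 21657 and 25750.00 CPM in QSC for Hspa1b. Hspa8, the constitutive member, had 1857 CPM in MEF, against 25149 and 22093 CPM in QSC (log2 fold change -3.67 ± 1.12 (SE), adjusted p = 0.0283), and Hspb1 (HSP27) had 260.2 CPM in MEF, against 3569 and 12839 CPM in QSC. Dnajb1, a co-chaperone of HSP70, had 94.4 CPM in MEF, against 4305 and 8344 CPM in QSC, and Bag3, a co-chaperone of HSP70 in muscle, had 92.8 CPM in MEF, against 3637 and 3849 CPM in QSC. The mitochondrial chaperones Hspa9 and Hspd1 were closer. Hspa9 had 559 CPM in MEF, against 859 and 532 CPM in QSC. Hspd1 had 626 CPM in MEF, against 1074 and 1265 CPM in QSC. Hspa5 (BiP), of the endoplasmic reticulum, had 1996 CPM in MEF, against 13375 and 14273 CPM in QSC, which did not pass the test (adjusted p = 0.0555). Higher in MEF were the small heat shock proteins Hspb6, with 71.2 CPM in MEF, against 9.96 and 11.5 CPM in QSC, and Hspb7, with 4.597 CPM in MEF, against 0.6198 and 0.271 CPM in QSC. Ubb, a stress-inducible polyubiquitin gene, was among the 10 most counted genes of QSC, with 1529 CPM in MEF, against 25292 and 22484 CPM in QSC.

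Hspa1a and Hspa1b are near-identical copies, so the split of reads between them is uncertain. Their RefSeq windows, on chromosome 17 of GRCm38.p6 at chr17:34972107-34972406 and chr17:34959189-34959488, both on the minus strand, differ at 4 of 300 bases, which are in capitals.
Hspa1a: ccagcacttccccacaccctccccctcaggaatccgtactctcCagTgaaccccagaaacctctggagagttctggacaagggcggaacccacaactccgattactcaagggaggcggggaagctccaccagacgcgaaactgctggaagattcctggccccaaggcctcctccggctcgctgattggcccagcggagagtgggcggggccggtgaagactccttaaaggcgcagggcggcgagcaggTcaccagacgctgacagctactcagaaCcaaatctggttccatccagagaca
Hspa1b: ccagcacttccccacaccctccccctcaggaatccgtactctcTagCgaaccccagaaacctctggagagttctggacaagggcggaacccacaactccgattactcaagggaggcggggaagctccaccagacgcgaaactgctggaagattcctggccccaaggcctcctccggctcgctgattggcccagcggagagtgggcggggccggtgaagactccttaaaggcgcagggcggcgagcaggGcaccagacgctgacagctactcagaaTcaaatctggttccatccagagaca

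The heat shock element, searched as alternating TTC and GAA triplets, 3 in a row with any 2 bases between neighbours, was found in 5 of 23 heat shock genes with a window (21.7%), against 0.608% of tested genes. No match lay in the windows of Hspa1a, Hspa1b, Hspb1, Bag3 or Dnajb1, and Hspd1 had 2. The Hspd1 window with these matches overlaps that of Hspe1, which also had 2, so the same letters may count for both genes. Hsph1 (HSP110), which had 248 CPM in MEF, against 3373 and 4312 CPM in QSC (log2 fold change -3.95 ± 0.89 (SE), adjusted p = 0.00487), is shown as an example with the element in capitals, in 1 of its 2 windows (chr5:149636266-149636565, minus strand).
Hsph1: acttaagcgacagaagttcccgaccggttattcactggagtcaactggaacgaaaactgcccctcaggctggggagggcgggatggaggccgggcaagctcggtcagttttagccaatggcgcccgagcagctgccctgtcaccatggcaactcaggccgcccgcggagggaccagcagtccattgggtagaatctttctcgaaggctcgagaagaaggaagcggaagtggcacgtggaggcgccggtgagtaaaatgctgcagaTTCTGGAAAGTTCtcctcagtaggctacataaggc

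Immediate early genes, which cells switch on within minutes of a stimulus without new protein synthesis, were mostly lower in MEF. Of 39 genes, 29 were called lower and 1 higher (median -3.57), and they held 0.396% of MEF counts, against 3.25% and 3.68% of QSC counts. Fos had 39.9 CPM in MEF, against 2174 and 4831 CPM in QSC (log2 fold change -6.46 ± 1.05 (SE), adjusted p = 0.00043), Junb had 242 CPM in MEF, against 4172 and 4048 CPM in QSC, and Egr1 had 301 CPM in MEF, against 6629.6 and 9032 CPM in QSC. Atf3, a stress-inducible factor, had 3.33 CPM in MEF, against 1295 and 2198 CPM in QSC (log2 fold change -9.03 ± 1.07 (SE), adjusted p = 2.51e-05). Nr4a1, an orphan nuclear receptor, had 39.8 CPM in MEF, against 844 and 1648 CPM in QSC, and Myc had 133 CPM in MEF, against 4093 and 1754 CPM in QSC. Every one of these was lower in MEF than in either mouse. Ptgs2 (COX-2), which makes prostaglandins, was the gene called higher, with 505 CPM in MEF, against 2.38 and 2.03 CPM in QSC (log2 fold change 7.83 ± 0.68 (SE), adjusted p = 3.47e-06). Fosl2, with 125 CPM in MEF, against 225 and 403 CPM in QSC, was not called.

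Genes of the cAMP response overlapped with that list. Of 23 tested, 16 were called lower and 3 higher (median -3.27). Pde4b, a phosphodiesterase that degrades cAMP, had 19.7 CPM in MEF, against 2482 and 2111 CPM in QSC (log2 fold change -6.87 ± 0.98 (SE), adjusted p = 0.000131), and Crem had 15.1 CPM in MEF, against 166 and 189.6 CPM in QSC. A paralog, Pde4a, was higher in MEF with 35.4 CPM in MEF, against 2.15 and 2.58 CPM in QSC, as was the adenosine receptor Adora2b with 32.9 CPM in MEF, against 3.91 and 4.25 CPM in QSC. The cAMP response element, TGAC joined to GTCA, was found in 3 of 21 cAMP genes with a window (14.3%) and 3 of 30 immediate early genes (10.0%), against 3.36% of tested genes.

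Signalling genes divided by pathway member. In the Notch pathway, 7 (3 with library size alone) of 26 were called lower and 3 higher, beside 8.03% lower and 11.3% higher over all tested genes. The receptor Notch3 had 22.98 CPM in MEF, against 118 and 309.97 CPM in QSC, and the ligand Dll1 had 0.149 CPM in MEF, against 18.1 and 16.4 CPM in QSC. The ligand Jag1 had 48.99 CPM in MEF, against 24.3 and 14.7 CPM in QSC, higher than in either mouse without passing the test, and Notch2 had 34.2 CPM in MEF, against 27.3 and 40.2 CPM in QSC, between the mice. The fringe Lfng, which tunes ligand choice, was higher in MEF with 10.4 CPM in MEF, against 0.429 and 0.271 CPM in QSC.

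The Wnt signalling genes higher in MEF included ligands, receptors and antagonists, with 21 of 50 genes called higher and 5 (2 with library size alone) lower (median 2.13). The ligand Wnt5a had 108 CPM in MEF, against 0.143 and 1.31 CPM in QSC (log2 fold change 7.20 ± 0.88 (SE), adjusted p = 3.43e-05). Rspo2, a secreted enhancer of Wnt signals, had 28.96 CPM in MEF and no count in QSC, at least 416-fold higher. Fzd2 and Fzd7, receptors, were measured at 83.003 CPM in MEF, against 0.334 and 1.04 CPM in QSC for Fzd2, and at 119 CPM in MEF, against 8.53 and 5.25 CPM in QSC for Fzd7. The secreted antagonists Sfrp1 and Dkk3 were measured at 99.2 CPM in MEF, against 1.19 and 2.13 CPM in QSC for Sfrp1, and at 139.6 CPM in MEF, against 1.43 and 1.45 CPM in QSC for Dkk3. Axin2, a common target of the canonical pathway, had 3.03 CPM in MEF, against 0.477 and 0.769 CPM in QSC and was not called. Lower in MEF were the ligand Wnt4, with 6.69 CPM in MEF, against 29.5 and 58.8 CPM in QSC, and the receptor Ror1, with 7.18 CPM in MEF, against 204 and 258 CPM in QSC, whereas its paralog Ror2 had 55.8 CPM in MEF, against 2.48 and 1.54 CPM in QSC and was higher.

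In TGF-beta and BMP signalling, 10 of 48 were called higher and 8 (3 with library size alone) lower. Grem1, a secreted BMP antagonist, had 75.8 CPM in MEF and 1 count in QSC in all, a ratio of 3266 with a 95% counting interval of 585 to 129050.00. Inhba, the activin A subunit, had 353 CPM in MEF, against 8.77 and 2.67 CPM in QSC, and Fst (follistatin), which binds activin, had 225 CPM in MEF, against 14.4 and 9.32 CPM in QSC. Tgfb3 had 461 CPM in MEF, against 76.8 and 63.2 CPM in QSC. The ligands Bmp6, Bmp2 and Bmp4 were lower in MEF, with Bmp6 at 3.92 CPM in MEF, against 104 and 144 CPM in QSC, Bmp2 at 5.31 CPM in MEF, against 62.1 and 80.8 CPM in QSC and Bmp4 at 44.5 CPM in MEF, against 231 and 142 CPM in QSC. The BMP targets Id1 and Id3 were measured at 90.4 CPM in MEF, against 172 and 141 CPM in QSC for Id1, and at 372 CPM in MEF, against 1438 and 1488 CPM in QSC for Id3 and were not called. Targets and partners of YAP and TEAD were more often called higher than lower, with 11 of 31 called higher and 3 (5 by DESeq2) lower. The target Amotl2 had 379 CPM in MEF, against 58.6 and 92.97 CPM in QSC, and the factor Tead2 had 59.3 CPM in MEF, against 5.05 and 8.05 CPM in QSC. The targets Ctgf and Cyr61 were measured at 1177 CPM in MEF, against 547 and 388 CPM in QSC for Ctgf, and at 1463 CPM in MEF, against 1929 and 1497 CPM in QSC for Cyr61 and were not called. Vgll2, a muscle cofactor of TEAD, had 0.0747 CPM in MEF, against 41.6 and 157 CPM in QSC.

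Growth factors and their receptors were more often called higher in MEF than lower, with 19 of 49 called higher. Called lower were 4 (2 with library size alone, 7 by DESeq2, 7 with the 5 CPM filter). Over all tested genes, 11.3% were called higher and 8.03% lower. Fgf7, a mesenchymal growth factor for epithelium, had 103 CPM in MEF, against 0.381 and 0.814 CPM in QSC (log2 fold change 7.42 ± 0.74 (SE), adjusted p = 7.97e-06). Fgf10 had 12.03 CPM in MEF and no count in QSC, at least 173-fold higher. Ptn (pleiotrophin) had 203 CPM in MEF, against 2.43 and 0.136 CPM in QSC, and Hgf, the ligand of Met, had 5.72 CPM in MEF, against 0.0477 and 0.452 CPM in QSC. Among the FGF receptors, Fgfr2 had 75.5 CPM in MEF, against 3.53 and 0 CPM in QSC, Fgfr1 had 168 CPM in MEF, against 497 and 532 CPM in QSC without passing the test, and Fgfr4 was the one called lower in MEF. Gdnf, a neurotrophic factor, was lower in MEF with 1.23 CPM in MEF, against 31.1 and 31.2 CPM in QSC.

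Several genes of embryonic growth were far higher in MEF, while the summed level of their list was not. Of 31 imprinted and oncofetal genes tested, 11 were called higher and 1 (6 by DESeq2, 4 without a filter, 5 with the 5 CPM filter, 3 with 3 libraries fitted) lower, and the list summed to 5879 CPM in MEF, against 8003 and 11259 CPM in QSC. Hmga2, a chromatin protein of embryonic tissue, had 356 CPM in MEF, against 0.668 and 0.226 CPM in QSC (log2 fold change 9.63 ± 0.79 (SE), adjusted p = 2.81e-06). The mRNA-binding proteins Igf2bp1 and Igf2bp3 were measured at 92.5 CPM in MEF, against 0.0954 and 0 CPM in QSC for Igf2bp1, and at 66.3 CPM in MEF, against 0 and 0.136 CPM in QSC for Igf2bp3, while Igf2bp2 had 149 CPM in MEF, against 53.7 and 61.3 CPM in QSC and was not called. Among imprinted genes, H19 had 332 CPM in MEF, against 17.3 and 28.2 CPM in QSC, Dlk1 had 149 CPM in MEF, against 8.96 and 5.83 CPM in QSC, and Grb10 had 927 CPM in MEF, against 167 and 211 CPM in QSC. Meg3, on the same imprinted cluster as Dlk1, ran the other way with 184 CPM in MEF, against 267 and 1677 CPM in QSC and was not called. The mice differed there, with mouse 1 nearer to MEF.

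Chemokines and cytokines were called in both directions, with 15 (8 with library size alone) of 44 called lower and 8 higher (medians -2.74 against mouse 1 and -0.56 against mouse 3). Cxcl1, a neutrophil chemokine, had 10.8 CPM in MEF, against 4288 and 978 CPM in QSC (log2 fold change -7.93 ± 1.22 (SE), adjusted p = 0.00027), and Il6 had 1.76 CPM in MEF, against 81.7 and 61.4 CPM in QSC. Ccl11 (eotaxin) had 0.336 CPM in MEF, against 104 and 107 CPM in QSC. Ccl19, a chemokine of lymphoid tissue, had no count in MEF, against 70.4 and 115 CPM in QSC, at least 832-fold lower. Higher in MEF were Il1rl1, the interleukin 33 receptor, with 648 CPM in MEF, against 1.91 and 0.136 CPM in QSC, Spp1 (osteopontin), with 1499.6 CPM in MEF, against 42.7 and 7.51 CPM in QSC, and Cxcl12, with 509 CPM in MEF, against 43.2 and 41.2 CPM in QSC.

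Antigen presentation, interferon and complement genes were lower in MEF without exception among those called, 21 (8 with library size alone) of 42 tested. The class I genes H2-K1 and H2-D1 were measured at 12.5 CPM in MEF, against 1607 and 1509.8 CPM in QSC for H2-K1, and at 44.5 CPM in MEF, against 3384 and 1995 CPM in QSC for H2-D1, and H2-K1 had log2 fold change -6.96 ± 0.94 (SE), adjusted p = 7.83e-05. Their light chain B2m had 352 CPM in MEF, against 1050.4 and 1193 CPM in QSC and was not called. Class II genes and C1q, which immune cells express, were called lower too, with H2-Aa at 0.112 CPM in MEF, against 11.9 and 18.4 CPM in QSC and C1qc at 0.0374 CPM in MEF, against 5.53 and 7.91 CPM in QSC. Beside them, Ptprc (CD45), the defining marker of immune cells, had 0.0374 CPM in MEF, against 1.62 and 0.995 CPM in QSC. Of the 11 immune markers, 2 (5 by DESeq2, 5 with 3 libraries fitted) were called lower. The part of immune cells in the class II and C1q values was not tested.

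Few genes of oxidative phosphorylation were called. Of 75 nuclear-encoded genes of oxidative phosphorylation tested, none was called higher and 2 (5 by DESeq2) lower (median -0.52 on the TMM scale and 0.12 with library size as the only scaling, so that the direction of the list turns with the scaling). Atp5b, of the ATP synthase, had 1350.4 CPM in MEF, against 2359.8 and 1579.8 CPM in QSC. Glycolysis and hypoxia genes had 1 (3 with library size alone) called higher and 6 (1 with library size alone) lower of 33. Ldha, lactate dehydrogenase A, had 1440.3 CPM in MEF, against 1088 and 822 CPM in QSC, and Hk2, a hexokinase of muscle, had 23.1 CPM in MEF, against 62.7 and 169 CPM in QSC. Ndrg1, a hypoxia- and stress-inducible gene, had 22.01 CPM in MEF, against 1434 and 1051 CPM in QSC (log2 fold change -5.82 ± 0.87 (SE), adjusted p = 0.000213).

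Cytosolic ribosomal protein genes, whose counts can be shared with pseudogenes, had lower values in MEF, and the number called depended on the scaling. Of 78, 16 (0 with library size alone, 51 by DESeq2, 33 with the 5 CPM filter) were called lower and none higher (median -1.58), and all but 1 had a lower value in MEF than the QSC mean. Rps19 had 316 CPM in MEF, against 1686 and 2095 CPM in QSC (log2 fold change -2.58 ± 0.77 (SE), adjusted p = 0.0261), and Rplp0 had 786 CPM in MEF, against 2479 and 2387 CPM in QSC, which did not pass.

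Lipid, retinoid and antioxidant genes held wide gaps in both directions, with 10 of 46 called higher and 14 (8 with library size alone) lower. Cyp1b1, a cytochrome P450 of mesenchymal cells, had 372 CPM in MEF, against 0.381 and 0.543 CPM in QSC (log2 fold change 9.64 ± 0.74 (SE), adjusted p = 2.81e-06). Crabp1, an embryonic retinoic acid binding protein, had 70.1 CPM in MEF, against 0.524 and 0.0452 CPM in QSC, and Scd2, a desaturase, had 926 CPM in MEF, against 34.6 and 63.3 CPM in QSC. Lower in MEF were the metallothioneins Mt1 and Mt2, with Mt1 at 43.1 CPM in MEF, against 2088 and 3261 CPM in QSC and Mt2 at 10.5 CPM in MEF, against 1568 and 2019 CPM in QSC, and Hmox1 (heme oxygenase), with 86.03 CPM in MEF, against 10687 and 2761 CPM in QSC. Srxn1, an oxidative stress gene, had 57.7 CPM in MEF, against 3454 and 736 CPM in QSC, with mouse 1 well above mouse 3. Cd36 and Fabp4, of fatty acid uptake, were measured at 0.785 CPM in MEF, against 99.7 and 14.7 CPM in QSC for Cd36, and at 6.17 CPM in MEF, against 204 and 39.1 CPM in QSC for Fabp4, again higher in mouse 1, beside which the endothelial markers above were higher in mouse 1 as well. The part of endothelial cells in these 2 values was not tested.

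Some genes had counts on one side only. Among genes with 5 CPM or more, 41 had no count in either QSC mouse and 55 had no count in MEF. The 12 highest fitted fold changes, among genes called and past 4-fold against each mouse, all belonged to genes with 0 counts in QSC. Such fitted values depend on the prior count, so their order is no order of size, and genes with counts on both sides, such as Grem1 and P4ha3, had ratios above some of the bounds that follow. The 12 were Htr1b, a serotonin receptor (37.7 CPM in MEF, at least 542-fold higher), Serpinb9b, a protease inhibitor (35.3 CPM, at least 507-fold), Hoxd13, Rspo2, Slc25a13, a mitochondrial carrier (26.2 CPM, at least 376-fold), Ano3, Ibsp, Fam220a, Kcnj15, Rassf6, Mogat2 and Itih2, the last at 13.6 CPM and at least 196-fold. The symbol Fam220a belongs to more than 1 gene identifier in the files, so reads could be split between copies. The 12 lowest fitted fold changes likewise all belonged to genes with 0 counts in MEF, and Chrdl2, with counts on both sides, was further apart than some of their bounds. Neu2, a cytosolic sialidase, had 314 and 159 CPM in QSC, at least 2089.7-fold lower in MEF. Otoa (otoancorin), known from the inner ear, had 92.9 and 85.7 CPM in QSC, at least 796-fold lower. The rest were Pax7, Ccl19, Hbb-bt, Ccrl2, Cecr2, Fitm1, Nctc1, Gm20481, Traf3ip3 and Gm13301. Hbb-bt, a globin, had 80.1 and 0.859 CPM in QSC and rested on mouse 1.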

How the data were processed

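Poly(A)-selected RNA was made into directional libraries (NEBNext Ultra Directional), per the labels' protocols. STAR 2.3.0, HTSeq 0.6.0, Picard 1.100, edgeR and the mm9 build are named in the submitters' processing notes. No source used here gives the strand setting or annotation of the counting, so overlapping, antisense and near-identical genes are uncertain. The authors deposited whole-number counts per gene for each library, which were used as deposited, and a table of RPKM values, used only for levels between genes and for 1 alternative.

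Counts were scaled by TMM over all 6 libraries and tested with edgeR 4.0.16 (limma 3.58.1, R 4.3.3) by the quasi-likelihood F test, with 1 coefficient per group, the contrast MEF minus QSC, genes kept by filterByExpr by group and Benjamini-Hochberg adjustment at 0.05 over 17116 genes. Called means past that threshold. Each SE is the absolute log2 fold change divided by the square root of the F statistic. It restates the test and is no separate measure of spread. Log2 differences used a prior count of 2. The rule of size asked for at least 4-fold and 5 CPM or more in the higher group, without a test. A group at 0 was set at a floor of 3 counts, and intervals (95%) and floors cover counting error only. DESeq2 1.42.0, other scalings, other filters and RPKM + 0.1 were alternatives. The tests were also run on simulated data in which every library, MEF included, had the same spread. That run could not check whether the lone MEF library varies like the mice. Named genes were the 12 highest and 12 lowest fitted fold changes, the 10 most counted genes of each group, and the leading, defining and contrasting members of the lists. A few of them are not reported here. The members, lists and rules were chosen with earlier results of these data known, and the CCAAT motif and the promoters shown were added after the values were seen. Promoters came from RefSeq, GRCm38.p6, while counts are on mm9. MEF has no replicate, and p-values measure only the spread between 2 mice.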

Additional observations from a re-analysis of the deposited data

How the results depend on the processing

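No paired analysis was possible because MEF and QSC share only the replicate number 1. With a QSC mouse left out no residual degrees of freedom remained, so edgeR gave no calls. Counts by size then lay between 1779 and 1970 higher in MEF and between 1490 and 1608 lower. With a preset coefficient of variation of 0.4 edgeR called 3332 higher and 3161 lower, and with library size as the only scaling it called 461 lower. Counts by size were 2964 higher and 922 lower with library size alone, 2794 and 971 on RPKM values, 3689 and 2918 at 2-fold, and 950 and 819 at 8-fold. RLE size factors, TMM without stress genes, no filter, a 5 CPM filter and a fit of 3 libraries gave between 1720 and 2347 genes higher by edgeR and between 1363 and 1575 lower. Of the 3312 genes called, DESeq2 also called 3078 and library size alone 2093.

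List medians changed sign for oxidative phosphorylation (0.12 with library size alone). Leaving out QSC replicate 3 gave -0.031 for lipid handling and -0.60 for epithelial markers, and leaving out replicate 1 gave 0.16 and 2.78. Among named genes, none of them called, log2 fold changes turned positive with library size alone for Actg1 (0.41), Atp5b (0.10), Cdkn1b (0.28), Cyr61 (0.41), Eya1 (0.57), Hoxa7 (0.21), Hspa9 (0.33), Met (0.54), P4ha1 (0.47) and P4ha2 (0.48). With RLE size factors and with DESeq2 they turned negative for Notch2 (-0.060 in both) and Six4 (-0.029 in both). Calls moved as well among the 274 named genes followed, of which 221 were called. With library size alone 35 lost their call and 1 gained one, and by DESeq2 5 lost theirs and 11 gained one. The causes were not tested.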

Other observations

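Counts assigned to Lars2, the gene of the mitochondrial leucyl-tRNA synthetase, were the third highest of MEF at 6903 CPM, against 81.1 and 271 CPM in QSC. They were also high in the other cultured libraries, at 8203 CPM in activated satellite cells and 6090 and 7349 CPM in the Pax7-positive and Pax7-negative progenitors. Whether these reads come from the mRNA of the enzyme or from similar sequences of other RNAs was not tested. Of the 41 genes with no count in QSC, 10 had 1 CPM or more in all 3 other cultured libraries and 9 in none of them. Of the 55 genes with no count in MEF, 9 had 1 CPM or more in all 3 and 35 in none. The matching shares over all tested genes were not worked out, so these counts have no baseline and only describe the genes picked. Ano3, at 25.4 CPM in MEF and no count in QSC, had 23.1 CPM in activated satellite cells, and Htr1b, at 37.7 CPM in MEF and no count in QSC, had 47.3 CPM in Pax7-positive progenitors. Hoxd13, Rspo2 and Ibsp, by contrast, were below 1 CPM in each of those 3 libraries. Among the genes with no count in MEF, Fitm1 and Traf3ip3 had 32.4 and 20.9 CPM in activated satellite cells, while Gm20481 had no count in any library but those of QSC, at 24.9 and 23.8 CPM.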
